A study of Mus musculus with 4 samples.

Results

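Hepatocytes 1 is a cluster of mouse liver nuclei in a single-nucleus RNA-Seq data set, taken here as every nucleus that the authors' table of nuclei gives that cluster name. It held 651 of the 5193 nuclei and 651 of the 4410 nuclei in the 13 hepatocyte clusters. The nuclei came from livers of 3 hepatocyte-specific Nampt knockout (HNKO) mice, which carried Nampt fl/fl and Alb-Cre+/−, and 3 floxed WT littermates without Cre. All were C57BL6/BomTac females that were 8 to 12 weeks old when they started 6 weeks on a purified control diet, and all carried the floxed Nampt allele. The mice belonged to a cohort in which some animals drank water with nicotinamide riboside, and the sources used here do not say whether these 6 did. The Alb promoter drives Cre in hepatocytes and in cells that share their origin, so other liver cells of an HNKO mouse keep Nampt. Nuclei of each mouse were marked with a hashtag antibody and sequenced together in 2 pools. Mice are numbered within a genotype by their hashtag names.

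Hepatocytes divide their work along the liver lobule. Cells next to the portal vein favour gluconeogenesis, amino acid breakdown and the urea cycle, cells around the central vein favour cytochrome P450 oxidation and bile acid synthesis, and the innermost central cells make glutamine. In mice, growth hormone patterns also set a sex-biased liver programme, and the enzymes Cyp3a16, Cyp3a41, Cyp3a44 and Sult2a1 are known as genes that females express far more than males. NAMPT makes NAD+ from nicotinamide, which nearly all oxidative reactions of the hepatocyte draw on.

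Hepatocytes 1 was a large cluster in 1 WT mouse and in 1 HNKO mouse, and nearly absent from the other 4. WT mouse 2 gave 345 of its 713 hepatocyte nuclei (48.4%, exact binomial 95% interval 44.7 to 52.1%) and HNKO mouse 2 gave 292 of 819 (35.7%, 32.4 to 39.0%). WT mouse 1 gave 12 of 562 nuclei (2.14%, 1.11 to 3.70%). HNKO mouse 1 and HNKO mouse 3 gave 1 nucleus each, of 812 and 847. WT mouse 3 gave 0 of 657, a count that allows a share of up to 0.457% by the limit of 3 counts and of up to 0.560% by the exact interval that the plot of shares draws. WT mouse 2 and HNKO mouse 2 together supplied 97.9% of the cluster. The mean share was 16.8% ± 27.3 (SD, n = 3) in WT and 11.96% ± 20.5 (SD, n = 3) in HNKO mice, a difference of -4.88 percentage points that was far smaller than the spread between mice of a genotype. No test was run on it, and 3 mice against 3 cannot reach a two-sided exact permutation p under 0.10. Without WT mouse 2 the difference was 10.9 percentage points, and without HNKO mouse 2 it was -16.7. Without HNKO mouse 1 or HNKO mouse 3 it lay between 1.04 and 1.05. Intervals and limits cover counting error only.

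**Figure D1:**
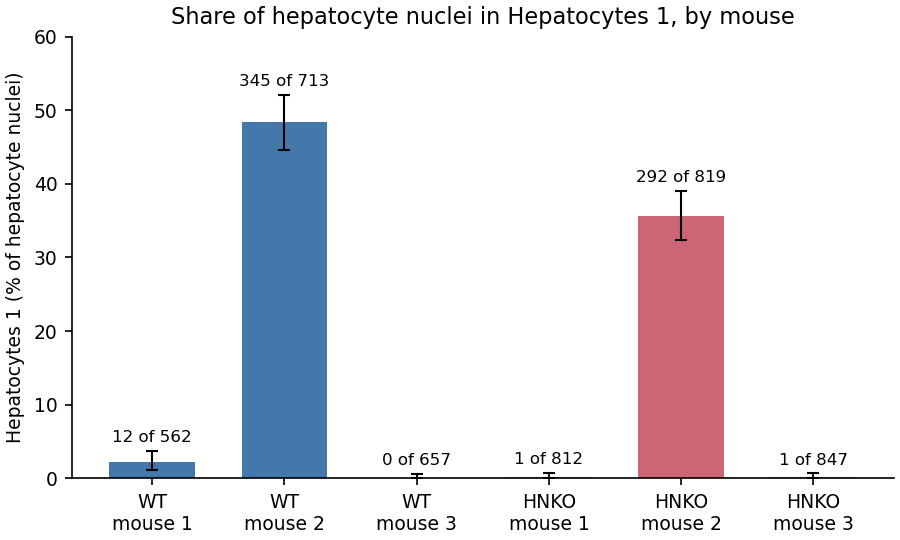
Share of hepatocyte nuclei in Hepatocytes 1 for each of the 6 mice, as a percentage with exact 95% binomial intervals, and the nuclei counted above each bar. WT mouse 2 (48.4%) and HNKO mouse 2 (35.7%) stand far above the other 4 mice, which lie between 0 and 2.14%.

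The cluster's RNA was summed per mouse and expressed in CPM, the counts of a gene scaled to a common total of UMIs per sum. The sums held 77631 UMIs in WT mouse 1, 2204987 in WT mouse 2 and 2548631 in HNKO mouse 2, so values of WT mouse 1 carry wide counting intervals. Median depth per nucleus in Hepatocytes 1 and in the other hepatocytes was 3877 and 3296 UMIs in WT mouse 2, and 6264 and 4603 in HNKO mouse 2. All 5193 barcodes in the table were distinct, but the table does not tell the 2 pools apart. Unspliced reads made up 78.4% and 79.5% of the cluster's UMIs in WT mouse 2 and HNKO mouse 2, against 76.1% and 77.5% in their other hepatocytes. Nuclei carried 73.0% and 71.3% of their hashtag counts from their own mouse, against 68.3% and 66.2%. HNKO mouse 3 stood apart, with 51.3% in its other hepatocytes. Xist lay between 2460 and 2930 CPM in all 6 mice, and the Y-linked genes Ddx3y, Uty, Kdm5d and Eif2s3y had at most 8 UMIs in any mouse.

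Albumin, the main product of hepatocytes, stood at 4676, 5088 and 4922 CPM in Hepatocytes 1 of WT mouse 1, WT mouse 2 and HNKO mouse 2 (gene Alb), and markers of other liver cells were low. Summed over 5 endothelial genes, Hepatocytes 1 had 26.2 CPM in WT mouse 2, 30.6 in HNKO mouse 2 and 51.7 in WT mouse 1, where the endothelial nuclei of the same mice had 8660, 9974 and 11830. The 5 Kupffer cell genes summed to between 6.61 and 12.9 CPM, the 5 CD45+ genes to between 19.5 and 41.9, the 5 stellate genes to at most 63.0, and the 6 cholangiocyte genes to at most 12.4. Kdr, an endothelial receptor, was at 0 in all 3 mice. Mitochondrially encoded transcripts summed to 1352 CPM in WT mouse 2 and 1170 in HNKO mouse 2, close to 1514 and 1443 in Periportal 1. In Hepatocytes 2, a cluster that enters the comparison with other hepatocytes, they summed to 10520 and 12460 CPM.

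Nampt itself was not lower in the nuclei of the mouse labelled HNKO. In Hepatocytes 1, Nampt (chr12:32819545-32853349, plus strand) stood at 64.4 CPM in WT mouse 1 (5 UMIs), 85.7 in WT mouse 2 (189 UMIs) and 117 in HNKO mouse 2 (298 UMIs). The last value was the highest of the 3. In the other hepatocytes it ran from 85.3 to 129 CPM in WT and from 84.0 to 171 in HNKO mice, and the groups overlapped. The edgeR quasi-likelihood log2 fold change, HNKO over WT, was 0.52 ± 0.47 (SE) in Hepatocytes 1, with an adjusted p of 0.999. The gene counts cover the whole gene, introns included, and do not separate the floxed segment, so they do not check the deletion. Below, HNKO is the genotype that the authors' table of nuclei gives a mouse.

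For the within-mouse comparison, Hepatocytes 1 was set against all other hepatocyte nuclei of the same mouse, in the 2 mice with at least 20 nuclei on both sides. The cluster was defined by the authors from the expression of these nuclei, so these differences describe it and were not tested. Of 3237 genes with a mean of at least 50 CPM on either side, 18 (0.556%) were at least 2-fold higher in Hepatocytes 1 of both mice and 29 (0.896%) were at least 2-fold lower, on the scale log2(CPM + 5). The median difference over all 3237 genes was -0.04 in WT mouse 2 and -0.03 in HNKO mouse 2. With WT mouse 2 alone 44 genes were higher and 47 lower, and with HNKO mouse 2 alone 21 and 34. When the 12 nuclei of WT mouse 1 were added as a mouse that had to show the difference too, 5 were higher and 15 lower.

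The 4 genes with the largest positive differences were Cyp3a genes, cytochrome P450 enzymes that oxidise steroids, bile acids and drugs. All 4 are protein-coding genes on the minus strand of chromosome 5 in GRCm38: Cyp3a16 at chr5:145436309-145469723, Cyp3a41b at chr5:145558664-145584730, Cyp3a41a at chr5:145694049-145720136 and Cyp3a44 at chr5:145773983-145805874. Cyp3a44 stood at 673 CPM in WT mouse 1, 772 in WT mouse 2 and 452 in HNKO mouse 2 in Hepatocytes 1. In the other hepatocytes it stood at 121, 169 and 55.0 CPM in WT mice 1 to 3 and at 22.5, 78.8 and 11.4 in HNKO mice 1 to 3. Every cluster value lay above every value of the other hepatocytes. Its log2 difference within the mouse was 2.43, 2.16 and 2.45 in WT mouse 1, WT mouse 2 and HNKO mouse 2.

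Cyp3a16, the cluster's first marker, reached 220 CPM in WT mouse 2 and 113 in HNKO mouse 2, and 64.4 in WT mouse 1 from 5 UMIs. The other hepatocytes held between 0.904 and 31.3 CPM over the 6 mice, so no value overlapped. The log2 differences were 2.24, 2.63 and 2.22. Cyp3a41a stood at 633, 912 and 855 CPM in the cluster and at 59.6 to 257 in the other hepatocytes, and Cyp3a41b at 642, 743 and 724 against 49.7 to 182. These paralogs are near copies. In the last 500 bases of the annotated transcript, Cyp3a41a and Cyp3a41b shared 100% of their 31-base words, so reads from those bases could not tell them apart and their separate values are uncertain. Cyp3a44 shared 10.9% of its words with any other Cyp3a gene and Cyp3a16 shared 0.426%.

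The upstream sequences of these 4 genes are shown because the genes lie close together and were high in the same cluster. The RefSeq promoter table (GRCm38.p6) gives the start of each gene, and the 200 bases before it are printed 5′ to 3′ on the gene's strand. The ranges are chr5:145469724-145469923 for Cyp3a16, chr5:145805875-145806074 for Cyp3a44, chr5:145720137-145720336 for Cyp3a41a and chr5:145584731-145584930 for Cyp3a41b. Capitals mark ATCAAT, which is the core motif ATTGAT of ONECUT factors read on the opposite strand.
Cyp3a16: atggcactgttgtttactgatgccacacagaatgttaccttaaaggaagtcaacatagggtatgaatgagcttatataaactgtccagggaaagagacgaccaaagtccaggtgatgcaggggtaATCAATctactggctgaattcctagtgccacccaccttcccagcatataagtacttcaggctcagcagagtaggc
Cyp3a44: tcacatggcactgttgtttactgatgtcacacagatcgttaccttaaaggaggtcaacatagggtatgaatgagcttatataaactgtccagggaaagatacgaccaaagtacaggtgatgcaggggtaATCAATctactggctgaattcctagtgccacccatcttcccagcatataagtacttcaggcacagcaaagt
Cyp3a41a: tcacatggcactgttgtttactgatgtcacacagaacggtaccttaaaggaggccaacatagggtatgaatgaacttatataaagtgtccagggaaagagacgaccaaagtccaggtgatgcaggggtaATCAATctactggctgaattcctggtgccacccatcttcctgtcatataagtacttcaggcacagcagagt
Cyp3a41b: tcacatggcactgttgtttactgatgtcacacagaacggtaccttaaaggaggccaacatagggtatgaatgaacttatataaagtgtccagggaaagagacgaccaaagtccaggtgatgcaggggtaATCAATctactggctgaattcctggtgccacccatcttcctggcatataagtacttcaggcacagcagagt
The 4 sequences were 89.7 to 99.5% identical in pairs, so the shared motif counts as a property of 1 duplicated sequence and not as 4 separate matches. On either strand, ATTGAT occurred in the 250 bases before the start of 6.97% of 27025 RefSeq promoters. Of the 18 higher genes 13 had an entry and 5 held the motif, the 4 Cyp3a genes and Cyp2c69. Of the 29 lower genes 23 had an entry and 1 held it. The STAT5 motif TTCNNNGAA occurred in 7.18% of all promoters, in 0 of the 13 and in 1 of the 23. GTTAAT, a motif of HNF1 factors, occurred in 6.52% of all promoters, in 2 of the 13 and in 1 of the 23.

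Of the other 3 markers, Sult2a1 and Car3 were at least 2-fold higher in both mice and Cyp2a22 was not. Sult2a1, a sulfotransferase that conjugates steroids and bile acids (chr7:13796246-13837409, minus strand), stood at 606 CPM in WT mouse 2 and 223 in HNKO mouse 2, and at 12.9 in WT mouse 1, where a single UMI was counted. The other hepatocytes of the same mice held 271, 64.7 and 5.18 CPM. The other hepatocytes of WT mouse 2 thus exceeded Hepatocytes 1 of HNKO mouse 2, and the level followed the mouse as well as the cluster. Car3, a carbonic anhydrase (chr3:14863512-14872523, plus strand), stood at 824 and 332 CPM in Hepatocytes 1 of WT mouse 2 and HNKO mouse 2, with log2 differences of 1.45 and 1.04. In WT mouse 1 it stood at 219 CPM from 17 UMIs, below the 402 of that mouse's other hepatocytes. Cyp2a22, a cytochrome P450 (chr7:26931631-26939384, minus strand), had log2 differences of 1.13, 1.21 and 0.74. Compared with the cluster Central 1 alone, Cyp2a22 was lower in Hepatocytes 1, at -1.47 in WT mouse 2 and -1.70 in HNKO mouse 2. Car3 was lower than in Central 1 as well, at -0.49 and -0.53, while Sult2a1 was higher, at 3.47 and 3.52.

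**Figure D2:**
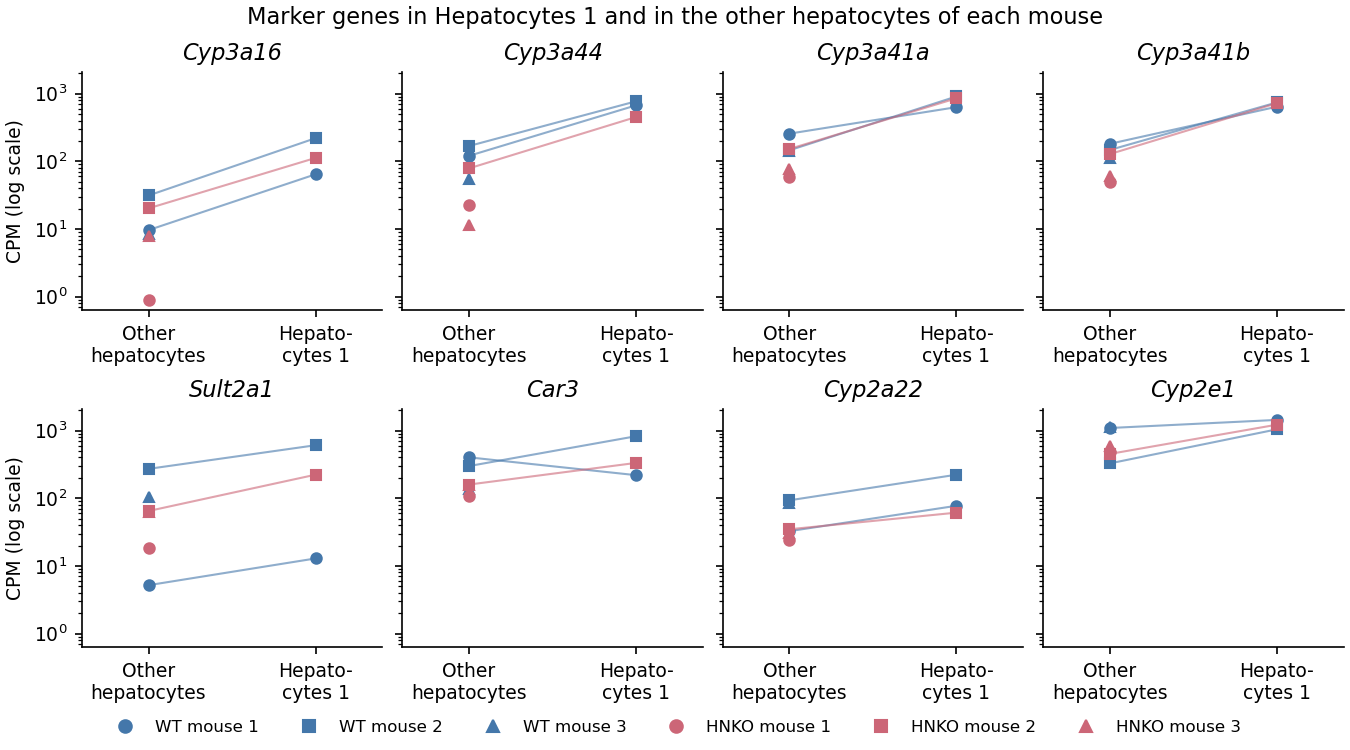
Marker genes in CPM on a log axis, in the other hepatocytes of all 6 mice and in Hepatocytes 1 of the 3 mice with at least 10 nuclei there, with lines joining the values of a mouse. The 4 Cyp3a genes are higher in Hepatocytes 1 along every line, while the Sult2a1 lines are spaced by mouse and the Car3 line of WT mouse 1 points down.

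The remaining higher genes included enzymes of steroid, drug and bile acid metabolism. Sult2a3 and Sult2a2, relatives of Sult2a1, had log2 differences of 1.36 and 2.43, and of 1.49 and 1.37, in WT mouse 2 and HNKO mouse 2. In the last 500 bases of their transcripts, Sult2a1, Sult2a2 and Sult2a3 shared 37.2%, 39.6% and 32.1% of their 31-base words with other Sult2a genes, and Cyp2a22 shared 26.2% with Cyp2a genes, so their separate values are uncertain too. Cyp2c38 went from 652 to 2460 CPM in WT mouse 2 and from 719 to 2153 in HNKO mouse 2, and Cyp2b13 from 393 to 1406 and from 366 to 903. In WT mouse 1, however, Cyp2c38 was at 2318 CPM in Hepatocytes 1 and at 2874 in the other hepatocytes. Cyp2e1, the central P450 that oxidises ethanol, stood at 1042 and 1220 CPM against 327 and 451. Cyp7a1, the rate-limiting enzyme of bile acid synthesis, stood at 732 and 421 CPM against 253 and 165. Esrrg, an orphan nuclear receptor, had log2 differences of 1.86 and 1.75, and Tafa2, which encodes a secreted chemokine-like protein, of 1.79 and 1.39. The list was completed by Cyp2c69, Akr1c6 and 2 gene models without a name.

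Lower genes were led by Cryl1, which encodes an enzyme of the glucuronate pathway (chr14:57274993-57398529, minus strand). Cryl1 was counted 20 times in each of the large sums, at 9.14 CPM in WT mouse 2 and 7.99 in HNKO mouse 2, and 0 times in WT mouse 1, which allows up to 38.6 CPM. The other hepatocytes held 64.8 to 253 CPM. The log2 differences of -4.09 and -4.31 placed it last of the 3237 genes. Next came Arhgap10, which encodes a GTPase-activating protein, at -2.99 and -2.83, and Sds, the serine dehydratase of periportal cells, at -2.78 and -2.47. The muscarinic receptor gene Chrm3 was at -2.22 and -2.78, and the steroid dehydrogenase gene Hsd17b6 at -1.87 and -2.47. Etnppl, Gldc, Cyp2f2 and Hal, genes of phospholipid, glycine, xenobiotic and histidine breakdown, lay between -1.78 and -2.60 in both mice. Slc1a2, a glutamate transporter of the innermost central hepatocytes, was at -2.52 and -2.31, and Sgcz, a sarcoglycan gene, at -2.04 and -2.20. Gldc in WT mouse 1 went the other way, with 283 CPM in Hepatocytes 1 and 202 in its other hepatocytes.

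**Figure D3:**
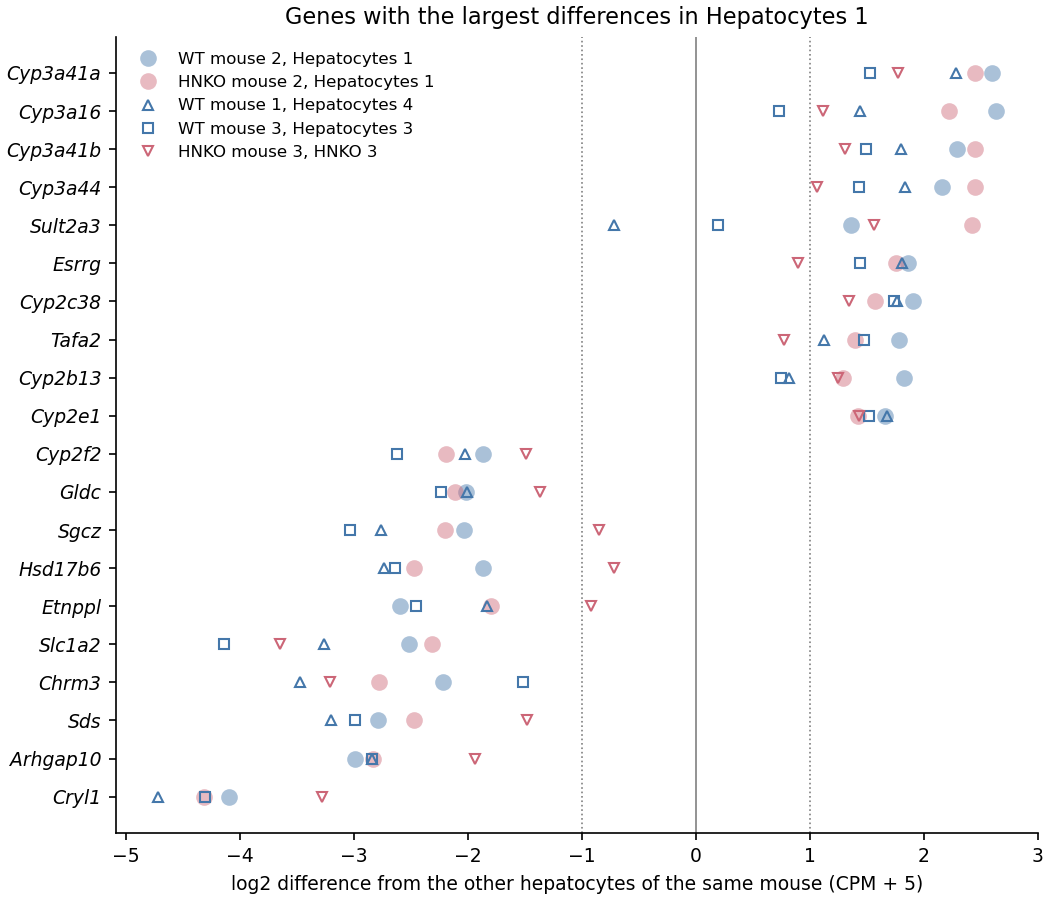
The 10 genes with the largest positive and the 10 with the largest negative differences, as log2 difference in CPM + 5 from the other hepatocytes of the same mouse, for Hepatocytes 1 in WT mouse 2 and HNKO mouse 2 (filled) and for the most similar cluster in WT mouse 1, WT mouse 3 and HNKO mouse 3 (open). Dotted lines mark 2-fold. The most similar cluster in HNKO mouse 1, Central HNKO 1, is not drawn. There Slc1a2 and Sgcz were higher than in the mouse's other hepatocytes and Cyp3a44, Cyp3a41a and Cyp3a41b lower, while Cryl1 was lower as in the drawn clusters. Cryl1 lies near -4 in all but HNKO mouse 3, and Sult2a3 is negative in WT mouse 1.

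Within WT mouse 2 and HNKO mouse 2, the other hepatocytes were mostly Periportal 1 (241 and 373 nuclei), Hepatocytes 2 (66 and 54) and Central 1 (49 and 80). Against Periportal 1, all 18 higher genes were higher in both mice, and 26 of the 29 lower genes were lower. Against Central 1, the picture divided. Of the 29 lower genes 24 were higher in Hepatocytes 1 than in Central 1 in both mice, and 4 were lower, namely Glul, Slc1a2, Sgcz and Cryl1. Of the 18 higher genes 6 exceeded Central 1 in both mice, namely Cyp3a41a, Cyp3a44, Sult2a1, Sult2a2, Sult2a3 and Tafa2. For Cyp3a41a the log2 difference was small, at 0.27 and 0.26. Another 9 were below Central 1 in both mice, namely Cyp3a16, Car3, Cyp2b13, Cyp2c38, Cyp2c69, Cyp2e1, Esrrg, Akr1c6 and a gene model without a name.

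Single genes give the profile. Glul, the glutamine synthetase of the innermost central cells, stood at 1605 and 1632 CPM in Central 1 of WT mouse 2 and HNKO mouse 2, at 80.1 and 59.3 in Hepatocytes 1 and at 40.8 and 27.4 in Periportal 1. Slc1a2 went from 3936 and 4430 over 61.7 and 113 to 12.1 and 9.62. Cyp2e1 went from 1989 and 2508 over 1042 and 1220 to 94.0 and 114. Lgr5, a receptor for R-spondin, went from 859 and 534 over 181 and 82.4 to 2.39 and 2.10. The summed values of Hepatocytes 1 lay between those of the 2 named clusters, far from Central 1 for Glul and Slc1a2 and nearer to it for Cyp2e1. For Glul the share of nuclei with a UMI, given below, could not be told apart from that of endothelial nuclei. Whether its position above Periportal 1 reflects expression in these nuclei was not tested.

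Several periportal genes ran in the opposite order, but not all. Hal, the histidine ammonia-lyase, stood at 12.5 and 22.2 CPM in Central 1, 272 and 175 in Hepatocytes 1 and 1255 and 718 in Periportal 1. Sds stood at 62.7 and 61.7, then 126 and 197, then 1054 and 1301. Cps1, the abundant first enzyme of the urea cycle, was instead higher in Hepatocytes 1 than in both, with log2 differences of 1.85 and 1.97 from Central 1 and of 0.26 and 0.22 from Periportal 1. The gluconeogenic enzyme Pck1 differed from Central 1 by 0.08 and -0.06 and from Periportal 1 by 0.12 and 0.05. Cryl1 did not lie in between, since it was near 0 in both central and Hepatocytes 1 nuclei (12.5 and 12.4 CPM in Central 1) and stood at 284 and 295 CPM in Periportal 1. Cyp3a44 peaked in Hepatocytes 1. It held 191 and 123 CPM in Central 1 and 154 and 64.4 in Periportal 1, against the 772 and 452 of Hepatocytes 1. Sult2a1 also peaked there, with 50.1 and 14.8 CPM in Central 1 and 300.3 and 69.8 in Periportal 1. Cyp3a16 did not, at 231 and 122 CPM in Central 1 and 220 and 113 in Hepatocytes 1.

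**Figure D4:**
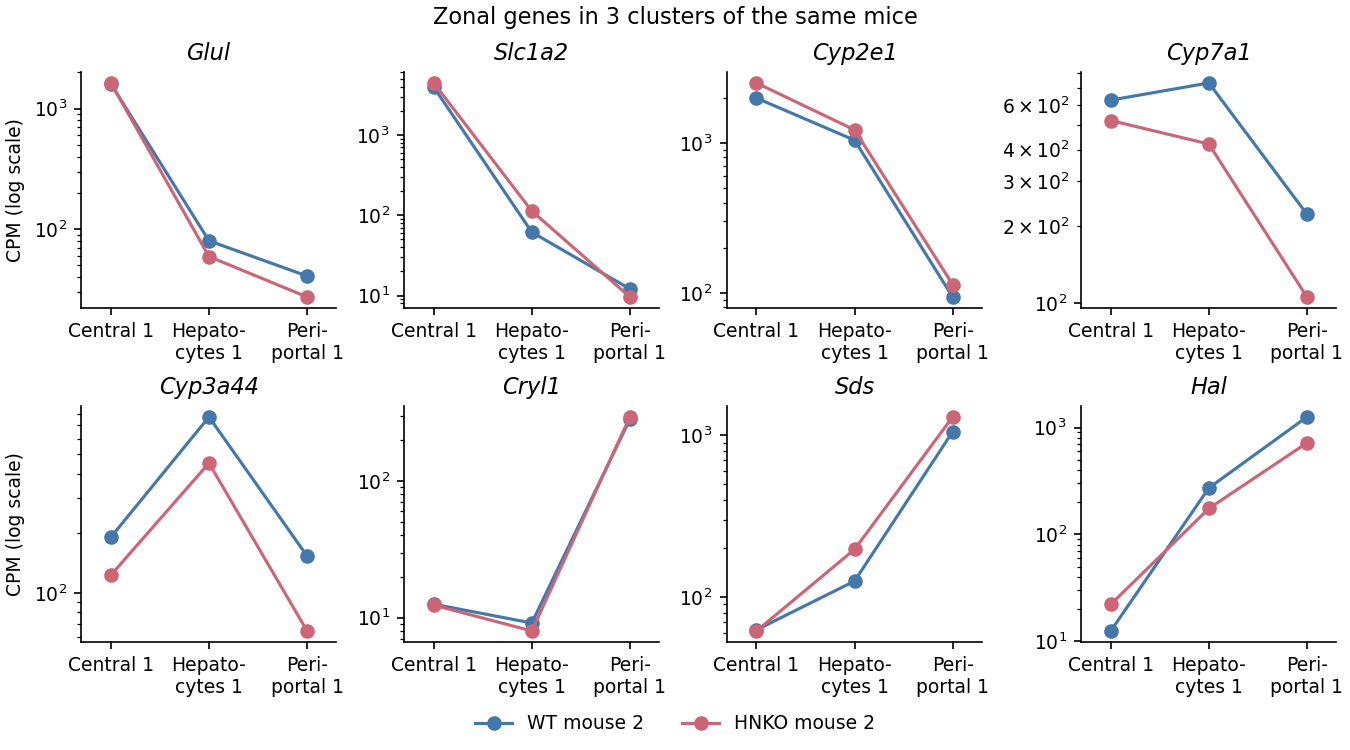
CPM on log axes of 8 genes in Central 1, Hepatocytes 1 and Periportal 1 of WT mouse 2 (blue) and HNKO mouse 2 (red). Glul, Slc1a2 and Cyp2e1 fall from left to right, Sds and Hal climb, Cryl1 is low in the first 2 clusters, and Cyp3a44 is highest in Hepatocytes 1.

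The other mice were searched for a cluster with the same profile. For each hepatocyte cluster with at least 20 nuclei in a mouse, the log2 difference from that mouse's other hepatocytes was correlated with that of Hepatocytes 1 over the 3237 genes. These correlations run across genes, which are not independent replicates, and they were used as a description. Hepatocytes 1 of WT mouse 2 and of HNKO mouse 2 correlated with each other at r = 0.804. The most similar cluster was Hepatocytes 4 in WT mouse 1 (196 nuclei, r = 0.707 and 0.725 with Hepatocytes 1 of WT mouse 2 and HNKO mouse 2) and Hepatocytes 3 in WT mouse 3 (293 nuclei, 0.702 and 0.720). In HNKO mouse 3, the mouse with the lowest share of its own hashtag, it was HNKO 3 (285 nuclei, 0.495 and 0.535). Without the 47 genes called above, r was 0.584 and 0.596, 0.579 and 0.581, and 0.342 and 0.372, in that order. These clusters held 34.9%, 44.6% and 33.6% of their mouse's hepatocyte nuclei. In HNKO mouse 1 the most similar was Central HNKO 1 (93 nuclei, 0.537 and 0.478), at 0.552 and 0.492 without the called genes, which is above the values of HNKO 3. That cluster held 1003 CPM of Glul, unlike Hepatocytes 1, and 658 of the mouse's 812 hepatocyte nuclei sat in the cluster HNKO 1, whose r was negative.

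The genes called in Hepatocytes 1 were then read in these clusters of mice that had not been used to call them. The clusters had been chosen for their likeness over all genes, the called genes included, so the counts are not independent support. In HNKO mouse 3 the choice depended on the called genes. Without them Central HNKO 2 (78 nuclei) had r of 0.433 and 0.379, above the 0.342 and 0.372 of HNKO 3. Of the 29 lower genes, 28 were at least 2-fold lower in Hepatocytes 4 of WT mouse 1 (1.79% of all genes), 23 in Hepatocytes 3 of WT mouse 3 (0.927%) and 11 in HNKO 3 of HNKO mouse 3 (0.896%). Of the 18 higher genes, 10 were at least 2-fold higher in Hepatocytes 4 (0.525%), 9 in Hepatocytes 3 (0.463%) and 11 in HNKO 3 (0.587%). In Central HNKO 1 of HNKO mouse 1, 6 of the 18 were at least 2-fold higher (2.53% of all genes) and 26 of the 29 at least 2-fold lower (4.23%). In Central HNKO 2 of HNKO mouse 3 these counts were 9 of the 18 (1.92%) and 23 of the 29 (3.52%). Cryl1 stood at 5.55, 4.91 and 9.05 CPM in Hepatocytes 4, Hepatocytes 3 and HNKO 3, as low as in Hepatocytes 1. Cyp2e1 stood at 1849, 1774 and 1043 CPM.

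The called Cyp3a genes were higher in Hepatocytes 4, Hepatocytes 3 and HNKO 3 than in the rest of their mouse, but at lower levels than in Hepatocytes 1. In Central HNKO 1 of HNKO mouse 1 they were not, with log2 differences of -1.48 for Cyp3a44, -0.68 for Cyp3a41a, -0.46 for Cyp3a41b and 0.06 for Cyp3a16. Cyp3a44 had log2 differences of 1.83, 1.43 and 1.06 in Hepatocytes 4, Hepatocytes 3 and HNKO 3, at levels of 235, 86.0 and 20.7 CPM, all below the 452 and 772 of Hepatocytes 1. Cyp3a16 stood at 20.3, 12.3 and 15.5 CPM, against 113 and 220. Sult2a1 had 5.11 CPM in Hepatocytes 4 and a log2 difference of -0.06, but 145 and 97.9 CPM and differences of 0.99 and 0.97 in Hepatocytes 3 and HNKO 3. Car3 differed by 0.90, -0.09 and 0.66. Car3 at 550 CPM in Hepatocytes 4 exceeded the 332 of Hepatocytes 1 in HNKO mouse 2. The levels of the called Cyp3a genes were thus higher in Hepatocytes 1 than in these clusters, while Sult2a1 and Car3 overlapped and Cryl1 was low in all. The whole Cyp3a family overlapped. It summed to 4171, 2388 and 2911 CPM in Hepatocytes 4, Hepatocytes 3 and HNKO 3. In Hepatocytes 1 it summed to 5397 CPM in WT mouse 2 and 4124 in HNKO mouse 2. Mouse and cluster name cannot be told apart in these comparisons, since each cluster came almost entirely from its own mice.

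Gene lists described the same contrast, and several hold genes already called above, so they are not separate evidence. Over all 3237 genes, 29.4% were higher and 41.6% lower in both mice. Of 16 measured female-biased liver genes 10 were higher in both mice and 4 lower, with medians of 0.76 in WT mouse 2 and 0.55 in HNKO mouse 2. The mean of these medians was 0.66, and it was 1.15 when HNKO mouse 2 was left out and the genes were filtered again, and 0.87 with thinned nuclei. The 10 higher members included 7 of the 18 genes called above, among them the markers Cyp3a16, Cyp3a44 and Sult2a1. Cyp17a1, Cyp2a4 and Cux2 were among the lower members, at -1.08, -0.65 and -0.44 in WT mouse 2. Of 12 male-biased genes only Cyp7b1 reached 50 CPM, at 201 and 174 CPM against 101.1 and 82.4. Of 8 Cyp3a genes 7 were higher, 4 of them already called above, and 1, Cyp3a13, was lower (medians 1.66 and 1.49). Of 11 pericentral genes 9 were higher, and Glul and Slc1a2 were lower (medians 1.00 and 0.34). Of 16 periportal genes 12 were lower and 2 higher (medians -0.43 and -0.34). Cps1 was among the 2, at 15723 and 17409 CPM against 12091 and 13360.

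Genes of fatty acid synthesis were lower than in the other hepatocytes as well, 12 of 14 in both mice and 0 higher in both, with medians of -0.52 and -0.35. The summed list was lower than in Periportal 1 and higher than in Central 1. It summed to 4279, 5445 and 8210 CPM in Central 1, Hepatocytes 1 and Periportal 1 of WT mouse 2, and to 4565, 8742 and 12980 in HNKO mouse 2. Acaca, acetyl-CoA carboxylase 1, went from 1679 to 814 CPM in WT mouse 2 and from 2730 to 1400 in HNKO mouse 2. Acly, which makes cytosolic acetyl-CoA, went from 654 to 224 and from 832 to 402. In WT mouse 1 these 2 genes stood at 2388 against 2053 and at 502 against 449.6 CPM, so its 12 nuclei did not share the difference. Of 12 genes of bile acid synthesis and transport 8 were higher and 4 lower (medians 0.30 and 0.32), among them the uptake transporter Slco1b2 at 3572 and 3448 CPM against 2261 and 2129. Of 8 genes of NAD synthesis 1 was higher and 4 lower (medians -0.10 and -0.21). Nampt was among the 4, with log2 differences of -0.56 and -0.53. All 10 measured mitochondrially encoded genes were lower (medians -0.89 and -0.92). Against Central 1 and Periportal 1 alone the mean of the 2 medians was -0.31.

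Further lists had the medians given here, where those of all genes were -0.04 in WT mouse 2 and -0.03 in HNKO mouse 2. PPAR-alpha targets and fatty acid oxidation (15 genes) had medians of 0.03 and 0.12, growth hormone signalling (5 genes) 0.13 and 0.10, and acute phase and iron genes (10 genes) -0.12 and -0.01. Secreted plasma proteins (24 genes) had medians of -0.25 and -0.14, with 14 lower and 3 higher, and NAD consumption (5 genes) 0.07 and 0.03. Midlobular genes (4 genes) had -0.12 and -0.18, NRF2 targets (3 genes) -0.08 and -0.11, and p53 targets (4 genes) -0.23 and -0.25. Beyond these, the Cyp2a to Cyp2d families (21 genes) had medians of 0.62 and 0.37, cytosolic sulfotransferases (7 genes) 1.10 and 0.83, and 2 genes of the integrated stress response 0.25 and 0.59.

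At the level of single nuclei the Cyp3a genes were widespread in the cluster and uneven. With every nucleus thinned to 1500 UMIs, the 4 Cyp3a genes gave a median of 4 UMIs in WT mouse 2 and 3 in HNKO mouse 2, with 9 and 7 at the 90th percentile. In Hepatocytes 1, 12.8% and 15.1% of nuclei had none, against 83.0% and 84.9% in Periportal 1 and 18.4% and 31.6% in Central 1. Cyp3a44 was seen in 50.1% (exact 95% interval 44.7 to 55.5%) of the thinned nuclei of WT mouse 2 and in 37.0% (31.4 to 42.8%) of those of HNKO mouse 2. Without thinning the shares were 69.0% and 71.2%. In endothelial nuclei, which should lack the gene, they were 11.5% and 3.92% when thinned, and 15.4% and 5.88% unthinned, at median depths of 2443 and 2964 UMIs.

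Sult2a1 was seen in 33.9% (28.9 to 39.2%) and 18.5% (14.2 to 23.4%) of thinned Hepatocytes 1 nuclei, and in 7.69% and 1.96% of endothelial nuclei. The highest nucleus of WT mouse 2 held 113 UMIs, 8.45% of the 1337 counted there. Cryl1 was seen in 0.580% (0.0703 to 2.08%) and 1.37% (0.374 to 3.47%) of the thinned nuclei, below the 19.2% and 9.80% of endothelial nuclei and the 26.1% and 28.8% of Periportal 1. Glul was seen in 8.41% (5.70 to 11.8%) and 11.0% (7.62 to 15.1%) of them. In endothelial nuclei it was seen in 19.2% (6.55 to 39.4%) and 7.84% (2.18 to 18.9%). These intervals overlapped, so the Glul shares could not be told apart from those of endothelial nuclei. Endothelial nuclei do not measure background for every gene, since Cryl1 was more frequent there than in Hepatocytes 1. In Central 1 Glul was seen in 71.4% and 83.5%. The summed 18 higher genes had a 10th percentile of 10 thinned UMIs in WT mouse 2 and 6.1 in HNKO mouse 2. In Periportal 1 their 90th percentile was 7 and 6. Central 1 was as high as Hepatocytes 1 or higher, with medians of 22 and 18 against 19 and 13.5. The unthinned shares were 52.2% and 42.5% for Sult2a1, 4.35% and 6.51% for Cryl1, and 22.0% and 27.7% for Glul.

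Inside the cluster, WT and HNKO could be compared over WT mouse 1, WT mouse 2 and HNKO mouse 2, the mice with at least 10 nuclei. The lone HNKO mouse was assumed to vary as the WT mice did, and a difference between genotypes cannot be told apart from a difference between these mice. Of 9890 genes, 4 (0.0404%) were higher in HNKO and 0 lower at a Benjamini-Hochberg adjusted p under 0.05 in edgeR's quasi-likelihood test. The spread in this fit came from the 2 WT mice alone. On counts simulated for the same mice, with the same spread set for every gene, it made more false calls than its threshold allows. Those counts do not carry the real spread of each gene, so they cannot tell how far the p-values are off here. The p-values are not relied on, and the called genes are named as differences of HNKO mouse 2 from these WT mice. At an unadjusted p under 0.05 there were 112. DESeq2 called 0 of them after adjustment, and 10 genes had an unadjusted p under 0.05. The median log2 fold change over all genes was 0.05. In the other hepatocytes, with all 6 mice, edgeR called 0 of 11270 genes, with 706 at an unadjusted p under 0.05, and DESeq2 called 21.

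Zfp981, a zinc finger gene (chr4:146502027-146539395, plus strand), stood at 14.2 CPM in WT mouse 1 (1 UMI), 14.4 in WT mouse 2 (32 UMIs) and 142 in HNKO mouse 2 (361 UMIs). The log2 fold change was 3.26 ± 0.55 (SE), with an edgeR adjusted p of 3.86e-05. The other hepatocytes held 80.9, 32.2 and 352 CPM in WT mice 1 to 3 and 192, 150 and 54.1 in HNKO mice 1 to 3. WT mouse 3 was the highest of these 6 and WT mouse 2 the lowest, so the genotypes overlapped and the gene varied from mouse to mouse, in the same order for WT mouse 2 and HNKO mouse 2 as in the cluster.

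Aacs, acetoacetyl-CoA synthetase, which feeds ketone bodies into lipid synthesis, stood at 90.2 CPM in WT mouse 1 (7 UMIs), 70.7 in WT mouse 2 (156 UMIs) and 347 in HNKO mouse 2 (884 UMIs). The log2 fold change was 2.21 ± 0.46 (SE), with an edgeR adjusted p of 0.00852. In the other hepatocytes of the 6 mice the values were 57.8, 102 and 170 CPM in WT and 53.02, 314 and 193 in HNKO mice, again with overlap. The log2 fold change over these 6 mice was 0.57 ± 0.58 (SE), with an edgeR adjusted p of 0.881. An unnamed lincRNA gene model had a log2 fold change of 2.02 ± 0.45 (SE) in Hepatocytes 1 and an edgeR adjusted p of 0.0157.

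Rsad2, an interferon-induced antiviral gene, was called on very few nuclei. It was counted 0 times in WT mouse 1, 1 time in WT mouse 2 and 48 times in HNKO mouse 2 (18.8 CPM), with a log2 fold change of 5.15 ± 1.14 (SE) and an edgeR adjusted p of 0.0157. Of the 48 UMIs 29 came from 1 nucleus, and 3 of the 292 nuclei carried all of them. Its adjusted p without a filter on low counts was 0.0574. In Periportal 1 of the same mouse 0 UMIs were counted. Central 1 and Hepatocytes 3 of WT mouse 3 held 31 and 42 UMIs of it (108 and 20.6 CPM).

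No gene passed the test as lower in HNKO, so lower genes were described by counting error alone. Of 3313 genes over 50 CPM in either genotype, 57 (1.72%) had exact 95% Poisson intervals in HNKO mouse 2 below those of both WT mice and 67 (2.02%) had them above. Without WT mouse 1 these counts were 342 and 390, and without WT mouse 2 they were 221 and 167. The 10 lower genes with the largest folds were Slc15a2, Hsd17b6, Rnf125, Slc25a33, Igfbp2, Hsd17b11, Grid1, G6pc, Gch1 and Txnip, and none had an edgeR adjusted p under 0.505. Slc15a2, a peptide transporter, stood at 72.0, 44.8 and 11.5 CPM, and the other hepatocytes of HNKO mouse 2 were also the lowest of the 6 mice, at 4.09. Hsd17b6 stood at 180, 192 and 59.7 CPM. Igfbp2, which binds insulin-like growth factors, stood at 412, 445 and 162 CPM in the cluster and at 443, 364 and 203 in the other hepatocytes of WT mice 1 to 3, against 145, 141 and 114 in HNKO mice 1 to 3. There the genotypes did not overlap, and the log2 fold change was -1.45 ± 0.33 (SE), with an edgeR adjusted p of 0.773. G6pc, the last enzyme of gluconeogenesis, stood at 1906, 1444 and 747 CPM in the cluster.

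**Figure D5:**
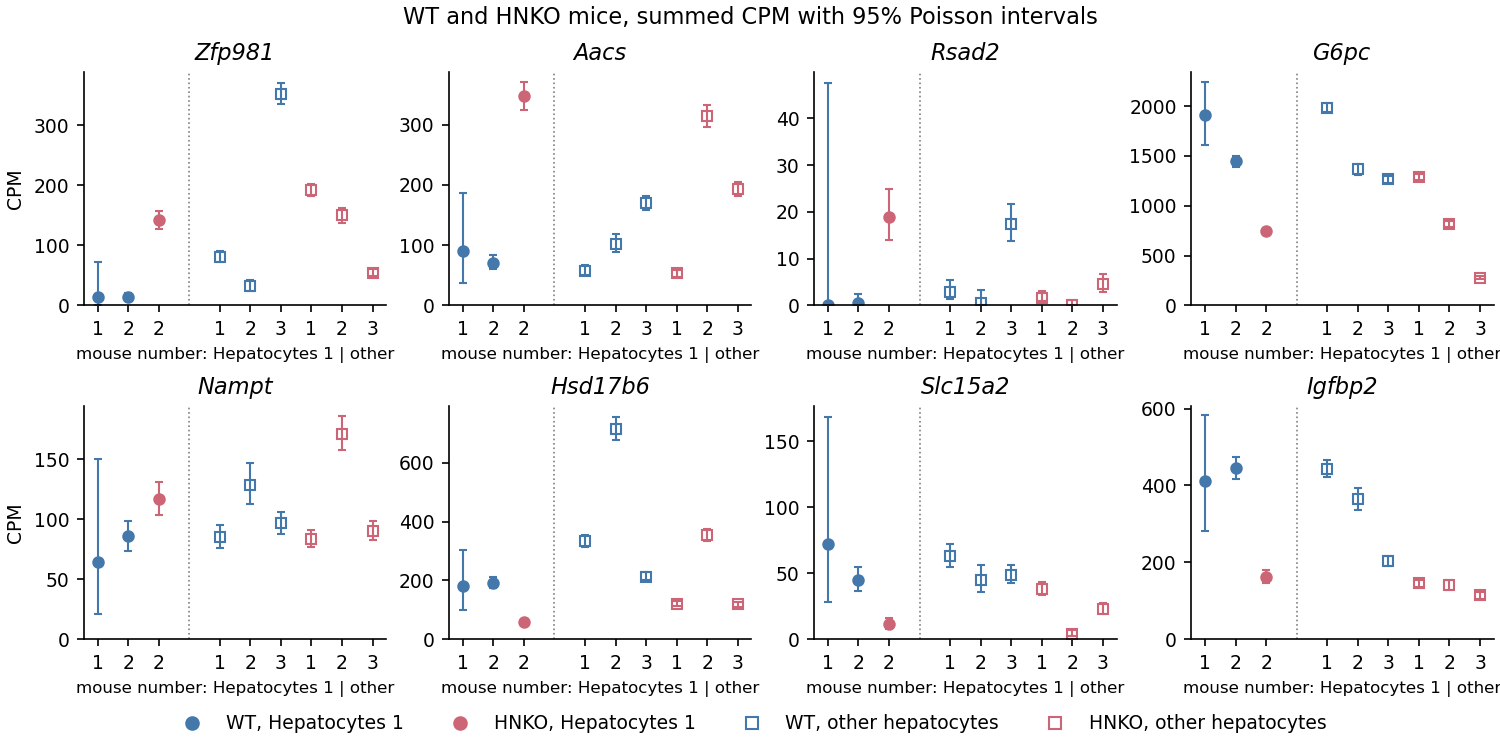
CPM with exact 95% Poisson intervals in Hepatocytes 1 of WT mouse 1, WT mouse 2 and HNKO mouse 2 (filled circles) and in the other hepatocytes of all 6 mice (open squares), for 8 genes named in the text. HNKO mouse 2 is highest in the cluster for Zfp981 and Aacs, while among the other hepatocytes WT mouse 3 is the highest for Zfp981.

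Marker genes did not pass the genotype test in Hepatocytes 1, and gene lists were described by their members and not tested as sets. The log2 fold change of Cyp2a22 was -1.54 ± 0.48 (SE), with an edgeR adjusted p of 0.762, at 77.3, 223 and 61.2 CPM. Sult2a1, Car3, Cyp3a44 and Cyp3a16 had log2 fold changes of -0.77, -0.78, -0.65 and -0.62, and Cyp3a41a and Cyp3a41b of 0.15 and 0.08. The WT mice themselves lay far apart, with Sult2a1 at 12.9 and 606 CPM. Of 19 genes of cholesterol synthesis and uptake 18 had a positive log2 fold change (median 0.43), where 55.1% of all genes did, and 0 passed the test. Of 15 genes of NAD synthesis 8 were positive (median 0.01), and of 14 genes of fatty acid synthesis 10 (median 0.16). Of 20 female-biased genes 6 were positive (median -0.31), and of 24 secreted plasma proteins 18 (median 0.10). In the other hepatocytes of all 6 mice, 15 of 19 cholesterol genes were positive (median 0.68), 5 of 15 NAD synthesis genes (median -0.06), 3 of 14 fatty acid synthesis genes (median -0.19), 1 of 20 female-biased genes (median -0.81) and 2 of 24 secreted plasma proteins (median -0.35). Of all 11270 genes in the other hepatocytes, 52.7% were positive (median 0.02). The comparisons in Hepatocytes 1 and in the other hepatocytes share mice, and the difference between them was not tested. No listed gene passed the test in either direction.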

How the data were processed

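Single nuclei from 6 livers were hashtagged, pooled and sequenced with a droplet 3′ kit in 2 RNA pools and 2 hashtag pools. The authors made reads with Cell Ranger 5.0.1 and counted them with alevin on GRCm38 with GENCODE gene models (submitters' processing notes and the study's methods). The authors also demultiplexed mice, kept singlets and named 21 clusters, and no doublet caller was run again. The deposited matrix holds estimated counts of UMIs for 54464 genes, of which 10.1% of nonzero values were not whole to within 0.001, and sums were rounded. The deposited hashtag counts served to check mouse labels, and the deposited table of nuclei gave the spliced and unspliced UMI totals and the cluster names. The deposited normalised matrix was not used. No read depth beyond UMIs is given. Samples are pools, so mice were taken from the table of nuclei. The members and gene lists were chosen with earlier results of these data known.

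Within mice, log2((CPM + 5)/(CPM + 5)) was taken with no test. Between genotypes, sums per mouse with at least 10 nuclei were fitted with edgeR 4.0.16 (R 4.3.3; filterByExpr, TMM, quasi-likelihood test, Benjamini-Hochberg, threshold 0.05), with DESeq2 1.42.0 as an alternative. The edgeR fits were tested on simulated data, where the fit in Hepatocytes 1 made more false calls than its threshold allows. Named genes were the 5 markers, Nampt, the 10 largest and smallest within-mouse differences, up to 10 genotype calls per direction (where none passed, 10 with separate Poisson intervals) and the most abundant list members; unnamed models were counted. The genes shown by zone and members behind counts of 5 or fewer were named after their values were seen. Thinning drew 1500 UMIs per nucleus. Coordinates came from GENCODE M21 on the same build. P-values rest on the spread between these mice, which in the Hepatocytes 1 fit came from the WT mice alone. Alternatives were other offsets, filters, depths, comparison nuclei and mice.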

Additional observations from a re-analysis of the deposited data

Results flagged for a closer look

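Gene lists whose median difference between Hepatocytes 1 and the other hepatocytes had opposite signs in the WT and the HNKO mouse were singled out, and the difference between the mice was not tested. The median log2 difference of 10 genes of cholesterol synthesis and uptake was -0.01 in WT mouse 2 and 0.04 in HNKO mouse 2. That of 8 core clock genes was 0.08 in WT mouse 2 and -0.06 in HNKO mouse 2. Each rests on 1 mouse per genotype.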

How the results depend on the processing

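The 18 higher genes became 19 with an offset of 1 CPM, 15 with 20 CPM, 17 without the clusters named for HNKO, 13 with nuclei thinned to 1500 UMIs, 26 without a filter and 20 against Central 1 and Periportal 1 alone, a comparison chosen after seeing the data. The 29 lower genes became between 22 and 32 under these settings, except 60 without a filter. With the 12 nuclei of WT mouse 1 required too, 5 and 15 remained. Leaving out a mouse gave 21 to 44 higher and 34 to 47 lower genes, 18 and 27 of them shared with the full comparison either way. The genotype fit in Hepatocytes 1 called 0 genes with DESeq2, 5 with its size factors in edgeR and 3 without a filter. At a minimum of 20 nuclei, or without any of its 3 mice, no spread could be estimated. In the other hepatocytes 0 calls became 21 with DESeq2 and 304 without a filter, and leaving out each mouse gave 0 to 7, the 7 without HNKO mouse 2. Genes with separate intervals numbered 167 to 390 (higher) and 221 to 342 (lower) without a WT mouse, chosen after seeing the data. The difference in share ran from -16.7 to 10.9 percentage points without each mouse in turn, and was -5.11 as a share of all nuclei. No paired analysis was possible because the numbers of the mice come from their hashtag names and pair no animals. Depth limits WT mouse 1, whose 12 nuclei held 77631 UMIs. The cause of these shifts was not tested.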
